A study of Mus musculus with 9 samples.

Results

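The genes of the mitochondrial carrier family, whose mouse symbols begin with Slc25a, were followed in erythroblasts of mice on a low iron diet. Members were the genes that array probes named by RefSeq transcript, leaving out 3 genes, Slc25a28, Slc25a37 and Slc25a38. This gave 44 of the 20018 genes named on the array, measured by 52 probes. Of these, 36 had a probe well above background on every array of some group and were tested, among 14506 tested genes in all.

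Carriers of this family sit mostly in the inner mitochondrial membrane and exchange metabolites between the cytosol and the matrix. They move ADP, ATP and phosphate, the acids of the citric acid cycle, amino acids, carnitine esters of fatty acids, nucleotides and cofactors. A maturing erythroblast makes heme partly inside its mitochondria and clears these organelles before it becomes a red cell, so its carriers serve a short-lived compartment.

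The cells were erythroblasts of the sort gate labelled subset II, from the marrow of wild-type mice (strain C57BL/6J, labelled female). The groups were 7 weeks of low iron diet after weaning, 3 weeks of low iron diet after weaning, and normal diet, with 3 arrays each. Per the design text the replicates are biological; the age of the normal diet mice, and whether a sample was 1 animal or a pool, were not given in the sources used here. In a sorted population, fewer cells carrying a transcript and less of it per cell cannot be told apart.

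A level below is the log2 processed signal of a gene's probe minus the 75th percentile of its array, so it is relative to the rest of the array, and levels of different genes are not set against each other. The share of spots well above background was 45.2% to 53.6% at 7 weeks, 56.8% to 70.8% at 3 weeks and 65.5% to 66.3% on normal diet. Spike-in controls stood at 4.44 to 5.35 above the 75th percentile (log2) at 7 weeks, against 1.10 to 1.57 at 3 weeks and 0.50 to 1.74 on normal diet; the part of this in the results was not tested. Each group lay on a slide and scan of its own, so slide and diet cannot be told apart. All 9 tested erythroblast markers were well above background on every array, with a summed linear level of 2500 to 3890 at 7 weeks, 1680 to 1790 at 3 weeks and 1920 to 2030 on normal diet. These sums are relative to the 75th percentile of each array. The signal at that percentile was 792 to 1087 at 7 weeks, 1677 to 1837 at 3 weeks and 1499 to 1616 on normal diet. Normal diet replicates 1 and 2 went against the label for sex: the Y-linked gene Eif2s3y stood at -6.61 to -3.98 on the low iron arrays and at 5.12, 4.82 and -3.77 on normal diet replicates 1, 2 and 3. The X-linked Xist stood at -1.16 to 1.46 on the low iron arrays and at -5.59, -5.24 and -0.73 on these normal diet replicates. Calls against normal diet are therefore also given without these replicates.

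The start regions of 4 carrier genes are shown, chosen after the values were seen, as examples of the patterns described below: Slc25a39 was high at 3 weeks alone, Slc25a33 and Slc25a20 were high at 7 weeks, and Slc25a42 was low at both times. Each sequence runs from 250 bases before to 50 bases after the start in RefSeq (GRCm38.p6) on the gene's own strand, at chr11:102407468-102407767 (minus strand) for Slc25a39, chr4:149774218-149774517 (minus) for Slc25a33, chr8:70212232-70212531 (minus) for Slc25a42 and chr9:108661886-108662185 (plus) for Slc25a20. Capitals mark matches, on either strand, to any motif searched.
Slc25a39: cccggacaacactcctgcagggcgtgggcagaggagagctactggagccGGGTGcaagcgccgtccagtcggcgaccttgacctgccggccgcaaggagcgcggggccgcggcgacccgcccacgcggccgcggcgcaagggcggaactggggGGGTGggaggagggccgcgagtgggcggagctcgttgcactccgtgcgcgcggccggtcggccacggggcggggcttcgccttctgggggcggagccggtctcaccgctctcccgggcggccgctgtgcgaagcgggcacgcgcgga
Slc25a33: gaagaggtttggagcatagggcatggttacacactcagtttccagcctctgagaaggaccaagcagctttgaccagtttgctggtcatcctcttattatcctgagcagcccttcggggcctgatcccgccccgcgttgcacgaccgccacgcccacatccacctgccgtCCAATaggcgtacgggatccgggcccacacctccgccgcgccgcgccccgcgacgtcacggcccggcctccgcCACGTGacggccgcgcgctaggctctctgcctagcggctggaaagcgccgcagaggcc
Slc25a42: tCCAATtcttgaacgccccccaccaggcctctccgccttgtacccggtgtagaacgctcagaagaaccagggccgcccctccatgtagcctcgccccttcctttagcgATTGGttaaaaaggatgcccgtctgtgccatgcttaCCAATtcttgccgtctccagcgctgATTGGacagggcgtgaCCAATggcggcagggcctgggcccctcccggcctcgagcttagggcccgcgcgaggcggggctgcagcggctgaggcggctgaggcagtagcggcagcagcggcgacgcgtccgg
Slc25a20: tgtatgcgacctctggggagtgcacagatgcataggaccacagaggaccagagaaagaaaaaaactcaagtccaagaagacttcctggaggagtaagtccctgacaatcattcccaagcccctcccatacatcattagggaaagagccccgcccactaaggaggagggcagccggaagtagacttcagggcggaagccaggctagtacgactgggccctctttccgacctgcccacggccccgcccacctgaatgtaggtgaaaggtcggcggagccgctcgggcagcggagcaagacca

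The motifs searched on both strands were AGATAA and TGATAA (forms of the GATA site, bound by the erythroid factor Gata1), CACCC (bound by Klf1 and its relatives), TGATGNAA (the site of Atf4 with its C/EBP partners), CCAAT (bound by NF-Y), ACGTG (the core of the hypoxia response element), TCAAGGTCA (an estrogen-related receptor site) and the core site of Nrf1. Promoters matched 28 of the 36 tested carriers, 37 promoters in all, and were set beside 32851 promoters of the same 300 bases. The Slc25a39 window was 77.3% G and C and held 2 CACCC matches. The Slc25a33 window, 66% G and C, held 1 CCAAT match and 2 ACGTG matches, which are the 2 strands of a shared 6-base palindrome. The Slc25a42 window, 65.7% G and C, held 5 CCAAT matches, and the Slc25a20 window, 58% G and C, held none of the motifs.

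Over the carrier promoters, CCAAT was present in 20 of 37 (54.1%, against 37.4% of all promoters), CACCC in 23 (62.2%, against 57.5%) and ACGTG in 9 (24.3%, against 19.6%). AGATAA and TGATAA were each present in 3 (8.11%, against 11.2% and 9.05%). No carrier promoter held TGATGNAA, TCAAGGTCA or the Nrf1 core, which were found in 3.97%, 0.423% and 0.971% of all promoters. The median G and C content was 59% for carrier promoters and 52.7% for all. The shares are a description: matches were not tested as binding sites.

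After 7 weeks of low iron diet, 9 of the 36 tested carriers differed from normal diet (limma on all 9 arrays, Benjamini-Hochberg adjusted p under 0.05), a share of 25.0%, where 29.5% of all tested genes did so. The 2 that were higher (10.7% of all tested genes were) were Slc25a33 and Slc25a20; the 7 that were lower (18.7% of all were) were Slc25a42, Slc25a24, Slc25a16, Slc25a10, Slc25a12, Slc25a21 and Slc25a30. After 3 weeks, 4 of 36 differed from normal diet, a share of 11.1%, where 11.4% of all tested genes did so. The 2 higher carriers (3.52% of all tested genes were higher) were Slc25a39 and Slc25a45, and the 2 lower (7.88% of all were lower) were Slc25a42 and Slc25a21. With the 7 week arrays out of the fit, 17 of 36 carriers and 4416 of 14506 genes were called at 3 weeks, among them Slc25a24 (adjusted p = 0.00817), Slc25a5 (adjusted p = 0.0136), Slc25a20 (adjusted p = 0.0141) and Slc25a33 (adjusted p = 0.0339). With normexp background correction 15 of 36 carriers and 4497 of 14506 genes were called at 7 weeks. In the fit as reported the shares of carriers lay near those of all genes, and the differences below are those of single members.

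The median log2 fold change of the carriers was -0.69 at 7 weeks against normal diet and -0.37 at 3 weeks against normal diet, where the medians of all tested genes were -0.26 at 7 weeks and -0.17 at 3 weeks. At 7 weeks 27 of 36 values lay below 0, and at 3 weeks 24 of 36. Groups did not overlap for 16 carriers at 7 weeks (44.4%, against 47.4% of all tested genes) and for 22 at 3 weeks (61.1%, against 49.5%). The 2 comparisons share the normal diet arrays. In both of them only Slc25a42 and Slc25a21 passed the threshold; 7 carriers passed it at 7 weeks alone, 2 at 3 weeks alone, and 24 passed it in no comparison, the one between the 2 times included.

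**Figure D1:**
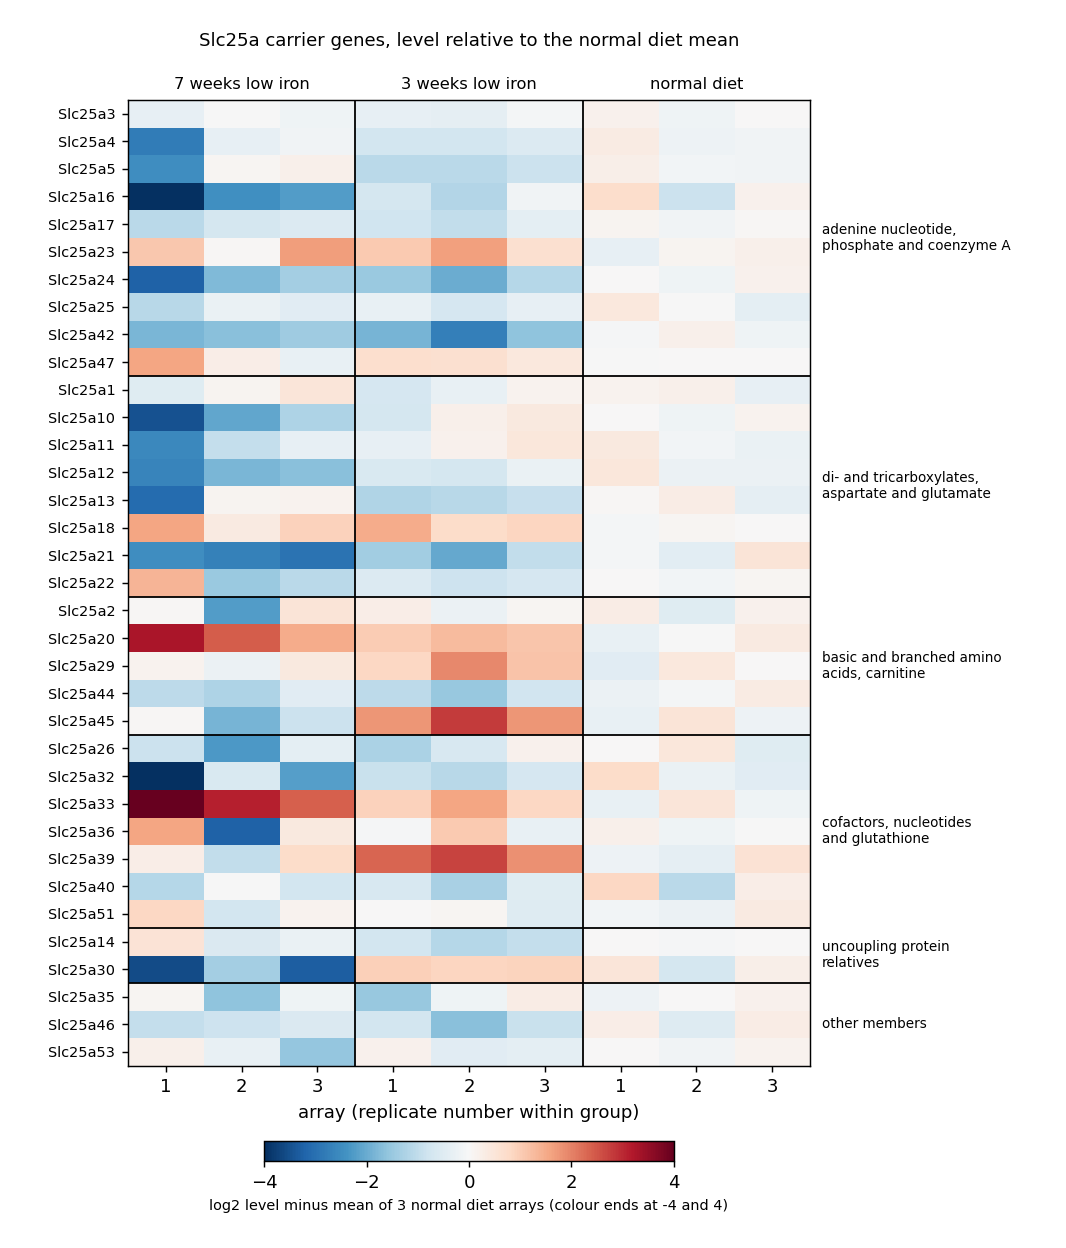
Level of the tested carriers named in the text on each array, as log2 level minus the gene's mean over the 3 normal diet arrays, with rows grouped by what the carrier moves and columns ordered 7 weeks, 3 weeks and normal diet. Blue is below and red above the normal diet mean; Slc25a33 and Slc25a20 are reddest at 7 weeks, Slc25a39 and Slc25a45 at 3 weeks, and the 7 week arrays differ more among themselves than those of the other groups.

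The carriers varied more between arrays at 7 weeks than in the other groups. The median SD of a carrier over 3 arrays was 0.90 at 7 weeks, 0.39 at 3 weeks and 0.31 on normal diet, beside 0.58 at 7 weeks, 0.32 at 3 weeks and 0.29 on normal diet over all tested genes. At 7 weeks 12 carriers had an SD above 1, and at 3 weeks and on normal diet none of the 36 did. Among the 7 week arrays, replicate 1 was lowest for 18 carriers and replicate 3 highest for 19. All 36 carriers were well above background on every normal diet array, and 24 were so on all 9 arrays.

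Among the 10 tested carriers of adenine nucleotides, phosphate and coenzyme A, 3 were lower at 7 weeks (30.0%, where 18.7% of all tested genes were) and 1 at 3 weeks (10%, where 7.88% were), and none passed the threshold as higher. With so few genes to a role, these and the shares below are a description. Slc25a42, which brings coenzyme A into the matrix, stood at 0.93, 1.09 and 1.33 at 7 weeks, at 0.90, 0.04 and 1.15 at 3 weeks, and at 2.72, 2.95 and 2.59 on normal diet. Every low iron array was thus below every normal diet array, with no gap between the 2 times. Slc25a42 had a log2 fold change of -1.64 ± 0.33 (SE, n = 3 per group, adjusted p = 0.00865), 3.11-fold lower, at 7 weeks and -2.06 ± 0.33 (adjusted p = 0.0115), 4.17-fold lower, at 3 weeks against normal diet. At 7 against 3 weeks it was 0.42 ± 0.33 (adjusted p = 0.339). The call at 3 weeks was lost without normal diet replicate 2.

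Slc25a24, a calcium-regulated exchanger of ATP-magnesium for phosphate, stood at 2.15, 3.61 and 4.02 at 7 weeks, at 3.90, 3.40 and 4.24 at 3 weeks, and at 5.39, 5.23 and 5.55 on normal diet. The normal diet arrays were again above all others. At 7 weeks the log2 fold change against normal diet was -2.13 ± 0.47 (adjusted p = 0.0115); at 3 weeks it was -1.55 ± 0.47, short of the threshold (adjusted p = 0.0631). Slc25a23 and Slc25a25, which share its regulation by calcium, had values of 0.93 ± 0.44 (adjusted p = 0.137) and -0.62 ± 0.33 (adjusted p = 0.178) at 7 weeks against normal diet. The second Slc25a25 probe gave -1.07 (adjusted p = 0.022) at 7 weeks against normal diet, past the threshold, and 0.52 at 3 weeks, where the first gave -0.43.

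Slc25a16, a carrier linked to coenzyme A in the matrix, stood at -3.19, -1.05 and -0.83 at 7 weeks, at 0.68, 0.23 and 1.24 at 3 weeks, and at 2.08, 0.53 and 1.55 on normal diet. The 7 week arrays lay below all others, and 2 of 3 were well above background. Its log2 fold change was -3.08 ± 0.65 (adjusted p = 0.0103), 8.44-fold lower, against normal diet and -2.40 ± 0.65 (adjusted p = 0.019) against 3 weeks. The call at 7 against 3 weeks was lost without 3 week replicate 1 or 3, and without 7 week replicate 1 the values were -2.33 and -1.65.

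The ADP/ATP translocases, which trade matrix ATP for cytosolic ADP, did not pass the threshold. Slc25a5 stood at 4.39, 6.93 and 7.05 at 7 weeks, at 5.79, 5.77 and 6.01 at 3 weeks, and at 7.08, 6.76 and 6.73 on normal diet. At 7 weeks replicate 1 was far below the other arrays of its group, and at 3 weeks all arrays lay below normal diet. The fold change of Slc25a5 against normal diet was -0.74 ± 0.62 (log2, adjusted p = 0.388) at 7 weeks and -1.0 ± 0.62 (adjusted p = 0.314) at 3 weeks. Slc25a4 had the same outlying array, with 1.75, 4.23 and 4.40 at 7 weeks, 3.83, 3.82 and 3.99 at 3 weeks, and 4.89, 4.36 and 4.40 on normal diet. Whether the probes tell these close relatives apart was not tested.

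Slc25a3, the phosphate carrier, was the steadiest of the brightly measured members. It stood at 5.79, 6.11 and 5.94 at 7 weeks, at 5.80, 5.77 and 6.03 at 3 weeks, and at 6.28, 5.95 and 6.13 on normal diet, and all groups overlapped. Slc25a3 had a log2 fold change against normal diet of -0.17 ± 0.24 (adjusted p = 0.603) at 7 weeks and -0.26 ± 0.24 (adjusted p = 0.512) at 3 weeks. Its second probe gave -1.53 (adjusted p = 0.0171) at 7 weeks, so its probes disagree. The remaining members of the group, Slc25a17 of the peroxisome and Slc25a47, had values of -0.78 ± 0.27 (adjusted p = 0.0572) and 0.52 ± 0.43 (adjusted p = 0.385) at 7 weeks against normal diet.

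Of the 8 carriers of di- and tricarboxylates, aspartate and glutamate, 3 were lower at 7 weeks (37.5%) and 1 at 3 weeks (12.5%), against the same shares of all genes. None was higher, where 10.7% of all genes were at 7 weeks and 3.52% at 3 weeks. Slc25a21, which exchanges oxodicarboxylates such as oxoadipate and oxoglutarate, stood at 2.08, 1.85 and 1.61 at 7 weeks, at 3.17, 2.51 and 3.59 at 3 weeks, and at 4.47, 4.13 and 5.06 on normal diet. The 3 groups did not overlap, with 7 weeks lowest and 3 weeks between. Slc25a21 had a log2 fold change of -2.71 ± 0.36 (adjusted p = 0.00243), 6.54-fold lower, at 7 weeks and -1.47 ± 0.36 (adjusted p = 0.0341), 2.76-fold lower, at 3 weeks against normal diet, and -1.24 ± 0.36 (adjusted p = 0.0251) at 7 against 3 weeks. The call at 3 weeks was lost without any 1 of the normal diet arrays or without 3 week replicate 1 or 2, with quantile normalization (-1.22, adjusted p = 0.056) and with no filter on dim probes (adjusted p = 0.0503). That between the times was lost without 3 week replicate 1 or 3 or 7 week replicate 2 or 3.

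Slc25a12, an aspartate-glutamate carrier of the malate-aspartate shuttle, stood at 2.42, 3.23 and 3.39 at 7 weeks, at 4.44, 4.36 and 4.79 at 3 weeks, and at 5.51, 4.83 and 4.80 on normal diet. The 7 week arrays lay below all others. Slc25a12 had a log2 fold change of -2.03 ± 0.34 (adjusted p = 0.00482), 4.10-fold lower, at 7 weeks against normal diet and -1.52 ± 0.34 (adjusted p = 0.00874) at 7 against 3 weeks. Slc25a13, its close relative, had -0.94 ± 0.75 (adjusted p = 0.365) at 7 weeks, where replicate 1 stood at -3.84 and the other arrays at -0.65 and -0.61. At 3 weeks it had -1.08 ± 0.75 (adjusted p = 0.374), with arrays at -1.96 to -1.69, below normal diet at -1.11 to -0.47. Without 7 week replicate 1 the value at 3 weeks passed the threshold (adjusted p = 0.0156). So did that at 7 against 3 weeks (1.21, adjusted p = 0.00734). Slc25a11, the oxoglutarate-malate carrier that completes the shuttle, had -1.29 ± 0.53 (adjusted p = 0.0955) at 7 weeks against normal diet and 0.09 ± 0.53 (adjusted p = 0.927) at 3 weeks.

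Slc25a10, which exchanges malate and succinate for phosphate, stood at -3.12, -1.70 and -0.85 at 7 weeks, at -0.32, 0.58 and 0.78 at 3 weeks, and at 0.40, 0.20 and 0.53 on normal diet. It was low at 7 weeks and overlapped normal diet at 3 weeks. Slc25a10 had a log2 fold change of -2.27 ± 0.54 (adjusted p = 0.0158), 4.81-fold lower, at 7 weeks against normal diet and -2.24 ± 0.54 (adjusted p = 0.0119) at 7 against 3 weeks. The call against normal diet was lost without normal diet replicate 1 or 3, and without 7 week replicate 1 its value was -1.65. Slc25a1, the citrate carrier, had 0.03 ± 0.34 (adjusted p = 0.958) at 7 weeks. The glutamate carriers Slc25a18 and Slc25a22 had 0.95 ± 0.35 (adjusted p = 0.0708) and -0.39 ± 0.63 (adjusted p = 0.657). For Slc25a22 the array of 7 week replicate 1 stood at 1.67 and the other arrays of the group at -1.18 and -0.78; without replicate 1 the value was -1.28 (adjusted p = 0.007), past the threshold.

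Among the 5 carriers of basic and branched amino acids and of carnitine, 1 was higher at 7 weeks and 1 at 3 weeks (20% each, where 10.7% and 3.52% of all genes were), and none passed the threshold as lower against normal diet. Slc25a20, which brings acylcarnitines into the matrix for fatty acid oxidation in exchange for carnitine, stood at 2.19, 1.33 and 0.40 at 7 weeks, at -0.07, 0.17 and 0.02 at 3 weeks, and at -1.40, -1.12 and -0.74 on normal diet. The 3 groups were in order of time on the diet and did not overlap. Slc25a20 had a log2 fold change of 2.39 ± 0.43 (adjusted p = 0.00598), 5.25-fold higher, at 7 weeks against normal diet and 1.13 ± 0.43, short of the threshold (adjusted p = 0.118), at 3 weeks. At 7 against 3 weeks it was 1.27 ± 0.43 (adjusted p = 0.0444), a call kept in 5 of 19 alternatives; among the 9 fits that each left out 1 array, 1, without 7 week replicate 3, kept it. Before scaling, the signal of Slc25a20 at 7 weeks was higher by 1.59 (log2) than on normal diet and by 0.3 than at 3 weeks.

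Slc25a45 stood at -3.15, -5.08 and -4.07 at 7 weeks, at -1.45, -0.42 and -1.45 at 3 weeks, and at -3.50, -2.70 and -3.42 on normal diet. The 3 week arrays were above all others, and no 7 week array was well above background. Slc25a45 had a log2 fold change of 2.10 ± 0.51 (adjusted p = 0.0332), 4.28-fold higher, at 3 weeks against normal diet. At 7 weeks the gene was at least 5.42-fold lower than at 3 weeks, a bound set by the lowest signals well above background. The limma adjusted p of 0.00269 belongs to the fitted value, not to this bound. The call at 3 weeks was lost when any 1 of the 3 week or normal diet arrays was left out.

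Slc25a29, a carrier of basic amino acids, stood at -3.73, -4.09 and -3.47 at 7 weeks, at -3.04, -1.95 and -2.73 at 3 weeks, and at -4.30, -3.44 and -3.85 on normal diet. It was highest at 3 weeks, with 1 of 3 arrays well above background at 7 weeks. Slc25a29 had a log2 fold change of -1.19 ± 0.37 (adjusted p = 0.0316) at 7 against 3 weeks, lost in 7 of 18 alternatives (among them without normal diet replicate 3, 3 week replicate 2 or 3, or 7 week replicate 2, and with normexp, where it was -0.27 with adjusted p = 0.399), and 1.29 ± 0.37 (adjusted p = 0.0527) at 3 weeks against normal diet. Slc25a44, which moves branched-chain amino acids, had -0.91 ± 0.33 (adjusted p = 0.0643) at 7 weeks and -1.11 ± 0.33 (adjusted p = 0.0593) at 3 weeks against normal diet. The second Slc25a44 probe gave -0.18 (adjusted p = 0.784) and -0.19 (adjusted p = 0.812). The ornithine carrier Slc25a2 had -0.57 ± 0.63 (adjusted p = 0.517) at 7 weeks and 0.04 ± 0.63 (adjusted p = 0.976) at 3 weeks.

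**Figure D2:**
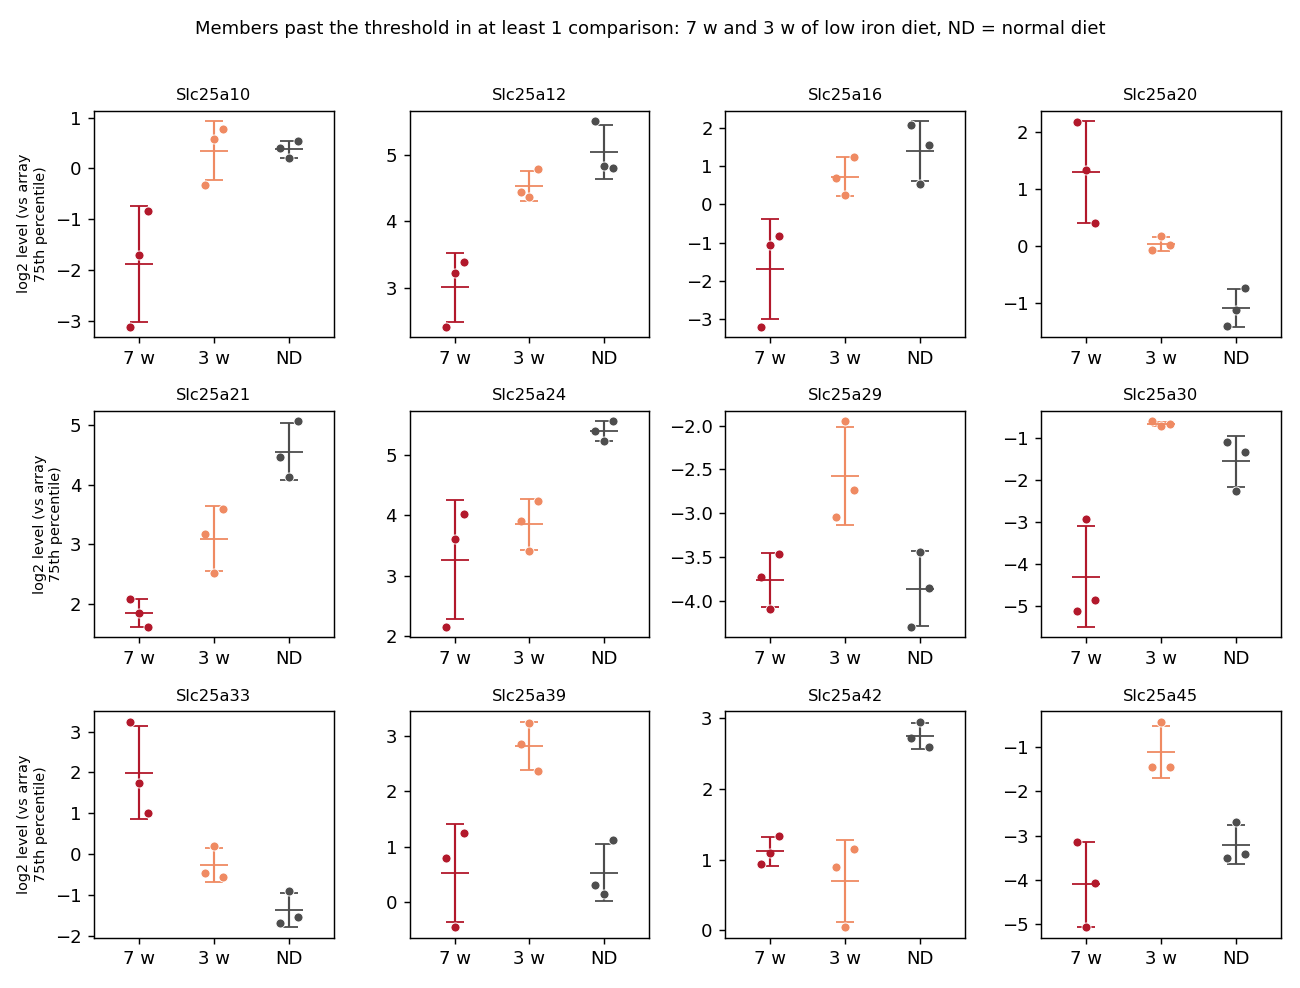
Level (log2, relative to the array's 75th percentile) of the 12 carriers past the threshold in at least 1 comparison, with a point for each array and bars for the mean and SD of 3 arrays. Slc25a21 and Slc25a20 are ordered by time on the diet, Slc25a39 and Slc25a45 peak at 3 weeks, and Slc25a30, Slc25a16, Slc25a10 and Slc25a12 are low at 7 weeks; each panel has its own axis.

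Of the 8 carriers of cofactors, nucleotides and glutathione, 1 was higher at each time (12.5% each, where 10.7% of all genes were at 7 weeks and 3.52% at 3 weeks) and none passed the threshold as lower against normal diet. Slc25a39, needed for the import of glutathione into mitochondria, stood at 0.79, -0.46 and 1.25 at 7 weeks, at 2.86, 3.23 and 2.36 at 3 weeks, and at 0.31, 0.15 and 1.11 on normal diet. The 3 week arrays were above every other array, and 7 weeks and normal diet overlapped. Slc25a39 had a log2 fold change of 0.00 ± 0.48 (adjusted p = 0.996) at 7 weeks and 2.29 ± 0.48 (adjusted p = 0.0214), 4.90-fold higher, at 3 weeks against normal diet. At 7 against 3 weeks it was -2.29 ± 0.48 (adjusted p = 0.00606), a call kept in all 19 alternatives run. The call at 3 weeks against normal diet was lost when normal diet replicate 1 or 2, or 3 week replicate 1 or 2, was left out. Slc25a40, its close relative in glutathione import, had -0.63 ± 0.51 (adjusted p = 0.367) at 7 weeks and -0.81 ± 0.51 (adjusted p = 0.325) at 3 weeks against normal diet.

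Slc25a33, a carrier of pyrimidine nucleotides, stood at 3.24, 1.74 and 1.01 at 7 weeks, at -0.46, 0.21 and -0.55 at 3 weeks, and at -1.67, -0.89 and -1.54 on normal diet. The 3 groups were again in order of time and did not overlap. Slc25a33 had a log2 fold change of 3.37 ± 0.54 (adjusted p = 0.0042), 10.3-fold higher, at 7 weeks and 1.10 ± 0.54 (adjusted p = 0.205) at 3 weeks against normal diet, and 2.27 ± 0.54 (adjusted p = 0.0107) at 7 against 3 weeks. The second Slc25a33 probe gave 4.71 (adjusted p = 0.000937) at 7 weeks and, past the threshold, 3.49 (adjusted p = 0.00807) at 3 weeks. Its levels were 0.61, -0.41 and -0.81 at 7 weeks, -1.89, -0.83 and -1.54 at 3 weeks, and -4.70, -4.91 and -5.13 on normal diet. On normal diet it was near background, with 2 of 3 arrays well above it. Both probes thus give the same order and differ on the call at 3 weeks. Without 7 week replicate 1 the first probe gave 2.74 against normal diet and 1.64 against 3 weeks. Before scaling, the signal of the first probe at 7 weeks was higher by 2.56 (log2) than on normal diet and by 1.3 than at 3 weeks. Slc25a36, the other pyrimidine nucleotide carrier, had -0.42 ± 1.02 (adjusted p = 0.774) at 7 weeks, where its arrays ran from -5.63 to -0.83.

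Slc25a51, which imports NAD, stood at 7.64, 6.09 and 6.97 at 7 weeks, at 6.85, 6.90 and 6.30 at 3 weeks, and at 6.71, 6.58 and 7.18 on normal diet. The 3 groups overlapped, with log2 fold changes of 0.08 ± 0.41 (adjusted p = 0.893) at 7 weeks and -0.14 ± 0.41 (adjusted p = 0.853) at 3 weeks against normal diet. Its second probe gave -0.87 (adjusted p = 0.159) at 7 weeks and -1.07 (adjusted p = 0.144) at 3 weeks, where its arrays, at 4.96 to 5.31, lay below those on normal diet, at 6.07 to 6.39. The signal of the first probe reached 19.3% of the saturation value, the highest of the carriers. Slc25a32, a transporter of folate and FAD, had -2.67 ± 0.95 (adjusted p = 0.0623) at 7 weeks against normal diet, from -4.26, 0.34 and -1.25 at 7 weeks against 1.68, 0.67 and 0.50 on normal diet. Replicate 2 of the 7 week arrays thus stood close to normal diet. Slc25a26, which carries S-adenosylmethionine, had -1.18 ± 0.55 (adjusted p = 0.13) at 7 weeks against normal diet, and -1.55 (adjusted p = 0.0746) by its second probe.

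Slc25a30, a relative of the uncoupling proteins, stood at -5.13, -2.92 and -4.85 at 7 weeks, at -0.60, -0.71 and -0.67 at 3 weeks, and at -1.09, -2.25 and -1.32 on normal diet. At 3 weeks its arrays lay above all others and within an SD of 0.05, and at 7 weeks they lay below all others, with 1 of 3 well above background. Slc25a30 had a log2 fold change of -2.75 ± 0.56 (adjusted p = 0.00919), 6.71-fold lower, at 7 weeks and 0.90 ± 0.56 (adjusted p = 0.319) at 3 weeks against normal diet, and -3.64 ± 0.56 (adjusted p = 0.00169), 12.5-fold lower, at 7 against 3 weeks. With normexp background correction the values at 7 weeks were -1.42 against normal diet and -2.00 against 3 weeks, still past the threshold; without 7 week replicate 2 they were -3.44 and -4.33. Slc25a14, the other relative tested, had -0.10 ± 0.32 (adjusted p = 0.828) at 7 weeks and -0.95 ± 0.32 (adjusted p = 0.086) at 3 weeks.

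The 3 remaining tested members passed no threshold. Slc25a46, of the outer membrane and involved in mitochondrial shape, had -0.79 ± 0.34 (adjusted p = 0.111) at 7 weeks and -1.10 ± 0.34 (adjusted p = 0.0695) at 3 weeks against normal diet. Slc25a35 and Slc25a53 had -0.57 ± 0.55 (adjusted p = 0.457) and -0.55 ± 0.43 (adjusted p = 0.351) at 7 weeks. The second Slc25a53 probe, well above background on no 7 week array, gave -1.60 (adjusted p = 0.0452) as its fitted value there, and that of Slc25a46 gave -0.12 (adjusted p = 0.935). Among the 8 members left untested, Slc25a34 was well above background on 2 of the 3 week arrays, Slc25a43 on 1 of them and Slc25a31, a translocase of the testis, on 1 normal diet array. Slc25a15, the main ornithine carrier, and Slc25a27, Slc25a41, Slc25a48 and Slc25a54 were well above background on no array.

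**Figure D3:**
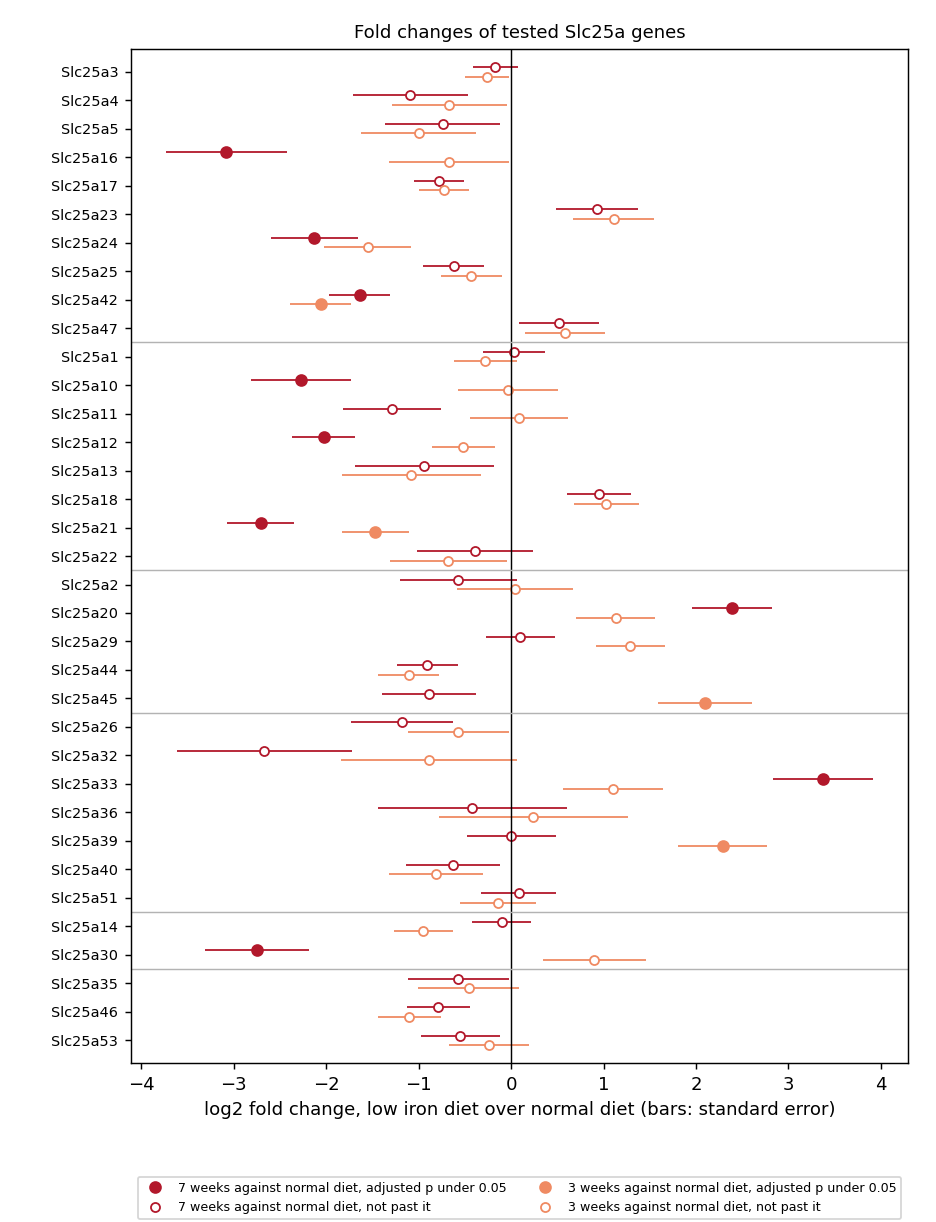
Log2 fold change against normal diet of the tested carriers named in the text at 7 weeks (upper, dark red) and 3 weeks (lower, orange), with bars for the standard error of limma and filled points where the adjusted p is under 0.05. At 7 weeks 7 of the 9 filled points lie below 0, and at 3 weeks 2 of 4 do; the Slc25a45 point at 7 weeks is a fitted value near background.

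Between the 2 times, 10 of 36 carriers passed the threshold at 7 against 3 weeks, a share of 27.8%, where 37.2% of all tested genes did so. The 2 higher at 7 weeks (17.6% of all tested genes were) were Slc25a33 and Slc25a20, and the 8 lower (19.6% of all were) were Slc25a10, Slc25a12, Slc25a16, Slc25a21, Slc25a29, Slc25a30, Slc25a39 and Slc25a45. The median of the carriers was -0.18, beside -0.13 over all tested genes, and groups did not overlap for 11 (30.6%, against 48.4%). This comparison uses no normal diet array for its values, though those arrays enter the estimate of the spread. Of the 10 calls, those of Slc25a10, Slc25a12, Slc25a30, Slc25a33, Slc25a39 and Slc25a45 were kept under every alternative run.

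The 13 calls against normal diet were also computed against normal diet replicate 3 alone, the array whose sex-linked genes fit the label. At 7 weeks the log2 fold changes were then 3.54 for Slc25a33, 2.05 for Slc25a20, -1.48 for Slc25a42, -2.29 for Slc25a24, -3.24 for Slc25a16, -2.42 for Slc25a10, -1.79 for Slc25a12, -3.22 for Slc25a21 and -2.98 for Slc25a30. At 3 weeks they were 1.71 for Slc25a39, 2.31 for Slc25a45, -1.90 for Slc25a42 and -1.97 for Slc25a21. Since the groups of these 13 calls did not overlap, their direction against a single array was fixed and is no check. The lone array is assumed to vary like the other groups, which give the spread of this fit. None of the 13 was past the threshold with that lone array (limma adjusted p from 0.0697 to 0.454), when 1 of all 14506 tested genes was called at 7 weeks and 0 at 3 weeks. At an unadjusted p under 0.05 there were 3047 genes and 10 carriers at 7 weeks, and 1588 genes and 6 carriers at 3 weeks.

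Other genes around the carriers moved in part. Among 4 tested family members under other symbols, Ucp3 was lower at 7 weeks against normal diet, with -2.07 ± 0.56 (adjusted p = 0.0243), and Ucp2 had -1.33 ± 0.47 (adjusted p = 0.0604). Whether the Ucp2 and Ucp3 probes tell these relatives apart was not tested. At 3 weeks none of the 4 passed (limma, 0 also at an unadjusted p under 0.05).

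Of 20 genes of other mitochondrial membrane transport, 3 were higher and 3 lower at 7 weeks against normal diet (30.0%, against 29.5% of all tested genes), and at 3 weeks 0 passed in limma, with 4 at an unadjusted p under 0.05. Lower at 7 weeks were the outer membrane channel Vdac1 (-1.74 ± 0.56, adjusted p = 0.0438), the sideroflexin Sfxn2 (-1.12 ± 0.36, adjusted p = 0.0448) and Micu2, a gatekeeper of the calcium uniporter (-1.14 ± 0.34, adjusted p = 0.0344). Higher were Smdt1, a subunit of that uniporter (1.35 ± 0.30, adjusted p = 0.0125), Tspo2 (1.01 ± 0.33, adjusted p = 0.0484) and the sodium-calcium exchanger Slc8b1 (4.86 ± 0.93, adjusted p = 0.00716), whose other probe gave -0.07. Before scaling, the signals of Smdt1, Tspo2 and Slc8b1 at 7 weeks were higher by 0.55, 0.21 and 4.06 (log2) than on normal diet. The pyruvate carrier subunit Mpc2 was higher at 7 against 3 weeks, with 1.5 ± 0.33 (adjusted p = 0.00841), and by 0.53 before scaling.

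Carriers enter the inner membrane through the outer membrane receptors Tomm20 and Tomm70a and small chaperones of the space between the membranes. Of 12 genes of this import path, 1 was higher and 2 lower at 7 weeks against normal diet (25.0%, against 29.5%), and 1 was lower at 3 weeks (8.33%, against 11.4%). Tomm70a, the main receptor for carriers, had -1.54 ± 0.33 (adjusted p = 0.0107) and Tomm20 -0.90 ± 0.27 (adjusted p = 0.0364) at 7 weeks, where the other Tomm20 probe gave -0.59 (adjusted p = 0.135). The chaperone Timm10 had 1.81 ± 0.46 (adjusted p = 0.0202) at 7 weeks, and Timm8b -1.88 ± 0.34 (adjusted p = 0.015) at 3 weeks. At 7 against 3 weeks the small chaperones Timm8b, Timm10, Timm10b and Timm13 were higher, by 2.36, 1.83, 1.71 and 1.35 (log2, adjusted p from 0.00128 to 0.038), while Timm9 had -0.97 (adjusted p = 0.255) and Timm8a1 -0.49 (adjusted p = 0.574). Tomm70a had -1.16 in that comparison. Before scaling, Timm8b, Timm10, Timm10b and Timm13 were higher there by 1.4, 0.87, 0.74 and 0.39 (log2).

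Of 32 tested enzymes that use what the carriers move, 3 were higher and 7 lower at 7 weeks (31.2%, against 29.5% of all genes), and 3 higher and 1 lower at 3 weeks (12.5%, against 11.4%), set against normal diet. At 3 weeks the folate enzymes Shmt2 and Mthfd2 had 2.38 ± 0.35 (adjusted p = 0.00939) and 1.57 ± 0.36 (adjusted p = 0.0276). Arginase Arg2, the other one counted as higher at 3 weeks, was not well above background on any 7 week or normal diet array. Its level at 3 weeks was at least 6.38-fold above that on normal diet. Arg2 entered the test through the 3 week arrays alone, where it was high, so its call is no support. At 7 weeks the mitochondrial creatine kinase Ckmt1 had 2.94 ± 0.43 (adjusted p = 0.00326) and the glycerol phosphate dehydrogenase Gpd2 1.18 ± 0.29 (adjusted p = 0.018). Before scaling, their signals were higher than on normal diet by 2.13 and 0.38 (log2). Lower at 7 weeks were, among others, ornithine aminotransferase Oat (-1.73 ± 0.36, adjusted p = 0.00997), the isocitrate dehydrogenase subunit Idh3a (-1.76 ± 0.44, adjusted p = 0.0179) and pantothenate kinase Pank2 (-1.49 ± 0.35, adjusted p = 0.0147), which starts coenzyme A synthesis. Hexokinase Hk1 was lower at 3 weeks, with -1.30 ± 0.23 (adjusted p = 0.0149), where its other probe gave 0.63.

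**Figure D4:**
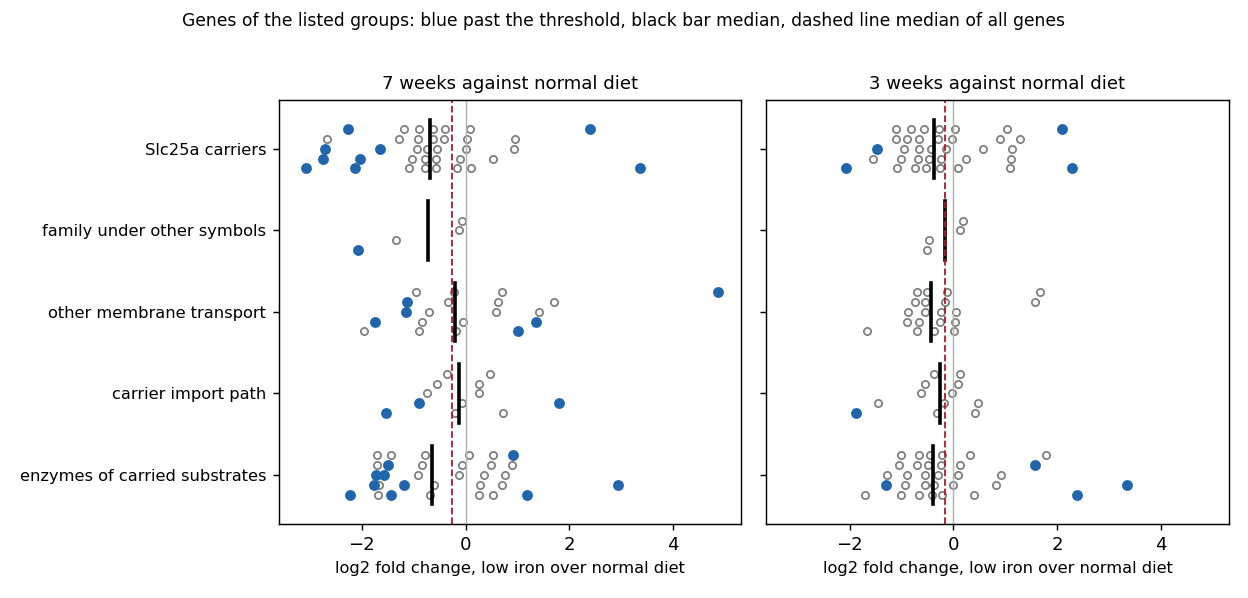
Log2 fold change against normal diet at 7 weeks (left) and 3 weeks (right) for the carriers and 4 related gene groups, a point for each gene, filled blue where the adjusted p is under 0.05, with a black bar at the group's median and a dashed line at the median of all tested genes. The carriers spread to both sides at both times, from -3.08 to 3.37 at 7 weeks and from -2.06 to 2.29 at 3 weeks.

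Markers of other marrow cells moved beside these results. With so few markers to a list, the counts are a description. At 3 weeks against normal diet 4 of 10 monocyte and macrophage markers, 2 of 11 neutrophil markers and 2 of 6 B lineage markers were higher. Among all tested genes 3.52% were higher there. At 7 weeks against normal diet 3 of 10 monocyte and macrophage markers, 1 of 6 B lineage, 1 of 5 megakaryocyte and platelet and 2 of 5 mast cell, basophil and eosinophil markers were lower (18.7% of all tested genes were). Higher were 1 of 11 neutrophil, 1 of 6 B lineage and 1 of 6 T and NK markers (10.7% of all were). At 7 against 3 weeks 6 of 10 monocyte and macrophage markers and 3 of 11 neutrophil markers were lower (19.6% of all tested genes were). So were 1 of 6 B lineage, 1 of 5 megakaryocyte and platelet and 1 of 5 mast cell, basophil and eosinophil markers. Higher were 2 of 11 neutrophil, 1 of 6 B lineage and 1 of 6 T and NK markers (17.6% of all were). The summed linear level of the monocyte and macrophage markers was 24.8 to 30.0 at 7 weeks, 69.7 to 99.2 at 3 weeks and 39.2 to 59.3 on normal diet, and all 10 were well above background in every group. This sum was highest at 3 weeks, as Slc25a39, Slc25a45, Slc25a29 and Slc25a30 were. Its markers differed: at 3 weeks against normal diet 8 had log2 fold changes above 0, up to 3.59 for Lyz2. Csf1r (-0.27) and C1qc (-0.15) had values below 0. The other Csf1r probes gave 2.07 (limma adjusted p = 0.0302) and -0.17 (adjusted p = 0.717), so its probes disagree. For neutrophil markers the summed level was 377 to 598 at 7 weeks, 301 to 518 at 3 weeks and 226 to 661 on normal diet, and for B lineage markers 4.05 to 14.1 at 7 weeks, 10.3 to 24.8 at 3 weeks and 5.62 to 10.6 on normal diet. For T and NK markers it was 22.2 to 38.0 at 7 weeks, 17.6 to 24 at 3 weeks and 17.8 to 20.1 on normal diet, and for megakaryocyte and platelet markers 6.12 to 38.8 at 7 weeks, 21.0 to 64.7 at 3 weeks and 17.9 to 50.8 on normal diet. The T and NK sum was thus above normal diet on every 7 week array, and the megakaryocyte sums overlapped. Markers of mast cells, basophils and eosinophils summed to 0.519 to 0.661 at 7 weeks, 0.565 to 24.4 at 3 weeks and 13.3 to 23.7 on normal diet, with 3 of 5 well above background on no 7 week array. Of 9 erythroblast markers, 3 were higher and 1 lower at 7 weeks against normal diet (44.4% called, against 29.5% of all tested genes). At 7 against 3 weeks 4 were higher and 1 lower (55.6%, against 37.2%). The 3 higher than on normal diet were bright, at 58.4% to 78.6% of saturation. Their log2 fold changes were 0.84 to 0.93, and before scaling their signals differed by 0.03 to 0.13 (log2). For the 4 higher than at 3 weeks the values were 0.93 to 1.16, and -0.03 to 0.19 before scaling. The part of scaling in these calls was not tested. The part of other marrow cells, or of a shift within the erythroblasts, in the carrier results was not tested.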

How the data were processed

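The 9 single-colour arrays were analysed from the deposited scanner files, which hold spot intensity values made by Agilent Feature Extraction 10.7.3.1, per the file headers: background was subtracted and nothing was scaled between arrays. Per the labels' protocols, RNA was amplified and labelled with Cy3. The deposited series table of log2 values served as an alternative only; it is centred per probe (array medians 0, except -0.0212 for 7 week replicate 2), and its normalization between arrays before that is not given in the sources used here.

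Outlier spots were left out, no spot was saturated, and spots of a probe were averaged after taking log2 and subtracting each array's 75th percentile. A probe was well above background where at least 50% of its usable spots carried that mark. Probes were named by RefSeq accession through a gene table of GRCm38.p6; 26403 of 27016 probes with such an accession matched. A gene's brightest probe among those well above background on all arrays of a group stood for it. Groups came from the labels. limma 3.58.1 in R 4.3.3 (lmFit, eBayes) was fitted to all 9 arrays, two-sided, with Benjamini-Hochberg adjustment over 14506 genes at 0.05, and was tested on simulated data. The number of arrays limits the precision. A fold against a group with no array well above background is a bound. The planned normexp correction (offset 50) used median instead of mean spot signals, which the files lack.

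The members, gene groups, markers, motifs and tests were chosen with earlier results of these data known. Some tested genes are counted but not reported here by name or value. Values for each array are given for members past the threshold and for the brightest ones. Alternatives were other background corrections, scalings, filters, probe rules and subsets of arrays.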

Additional observations from a re-analysis of the deposited data

Results flagged for a closer look

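For 10 carriers the level differed between the 2 low iron groups, by limma's test of 7 against 3 weeks (adjusted p under 0.05 over all genes). Both times shared the same normal diet arrays, so a changed response to the diet was not tested. Time on the diet, time since weaning and slide cannot be told apart here. The log2 difference, 7 weeks minus 3 weeks, was -3.64 for Slc25a30, -2.99 for Slc25a45 (a fitted value, with no 7 week array well above background), -2.40 for Slc25a16, -2.29 for Slc25a39, -2.24 for Slc25a10, -1.52 for Slc25a12, -1.24 for Slc25a21 and -1.19 for Slc25a29. It was 2.27 for Slc25a33 and 1.27 for Slc25a20. Among all tested genes 37.2% passed this test, against 27.8% of the carriers.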

How the results depend on the processing

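Against the 4 carriers called at 3 weeks, 9 at 7 weeks and 10 between the times, normexp gave 7 and 15 for the first and second (2050 and 4497 of 14506 genes). Only the 2 groups compared gave 17 at 3 weeks, and genes well above background on all 9 arrays gave 5 (of 24) between the times. Leaving out 1 array at a time gave 0 to 14 at 3 weeks (0 without normal diet replicate 2, 1 without normal diet replicate 1 or 3 week replicate 1 or 2, 2 without normal diet replicate 3, 14 without 7 week replicate 1), 8 to 12 at 7 weeks and 6 to 11 between the times (6 without 3 week replicate 3). Without normal diet replicates 1 and 2 it was 0 at 3 and at 7 weeks. Over all genes, the call count at 3 weeks was 1653 as reported, 4416 with only the 2 groups compared, 3503 without 7 week replicate 1, and 198 without normal diet replicate 2; at 7 weeks it was 4278, with 6939 of 19798 genes when dim probes were kept and 1739 without normal diet replicate 1. Quantile normalization split the calls at 3 weeks into 615 higher and 808 lower, where the reported fit gave 510 and 1143, and put the median of all genes at -0.02 in place of -0.17; normexp put it at 0.01 in place of -0.26 at 7 weeks. Carriers not well above background on all 9 arrays have no value under that filter. The 23 single calls were repeated 428 times: 367 stayed past the threshold, 61 did not and 0 reversed, and 14 calls were kept without each array in turn. Replicate numbers were not shown to pair the samples (correlation of deviations of same-numbered arrays from -0.172 to 0.286, not set beside that of other arrays). With the replicate number as a block 4, 10 and 9 carriers were called, without Slc25a45 at 3 weeks (adjusted p = 0.0615) and without Slc25a20 between the times (adjusted p = 0.0702). The cause of these changes was not tested.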
